A study of Caenorhabditis elegans with 34 samples.

Results

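Propionate, the short-chain fatty acid left over when branched-chain amino acids and odd-chain fatty acids are broken down, can be cleared in *Caenorhabditis elegans* by either of 2 enzyme routes, and the transcripts of both routes were followed here through life. The genes were chosen by name as the known enzymes of each route: 5 genes of the propionate shunt (*acdh-1*, *ech-6*, *hach-1*, *hphd-1* and *alh-8*) and 3 genes of the vitamin B12-dependent route (*pcca-1*, *pccb-1* and *mmcm-1*). These are 8 of the 20222 worm genes in the count table, and all 8 were found by symbol and passed the filter on low counts.

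RNA-seq counts of 34 whole-animal samples were used, from days 1 to 12 of life. Each sample was a large unsorted population grown at 25°C on agar plates, from strains kept on *E. coli* OP50, with day 0 set as the first contact with food after synchronization by hypochlorite. All samples, at every age, carried the temperature-sensitive allele *spe-9(hc88)*, which blocks fertilization at this temperature, so that the adults did not mix with progeny, and none of the groups used here was fertile. The strain beyond this allele is not given for these samples. There were 3 samples on each of 10 days and 2 samples on days 8 and 12, and the samples of 1 day are taken as replicates. The p-values of the comparisons of days and of the relations within days measure only the spread between such samples. All days in a fit share 1 estimate of that spread. Those of the age model also take in the distance of the daily means from the fitted curve.

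In the vitamin B12 route, propionyl-CoA is carboxylated by a carboxylase of an alpha and a beta subunit (PCCA-1 and PCCB-1) and the product is rearranged to succinyl-CoA by methylmalonyl-CoA mutase (MMCM-1), whose cofactor is adenosylcobalamin, a form of vitamin B12. In the shunt, which needs no vitamin B12, ACDH-1 oxidizes propionyl-CoA to acrylyl-CoA, ECH-6 hydrates it, HACH-1 removes the CoA, HPHD-1 oxidizes the resulting 3-hydroxypropionate to malonate semialdehyde, and ALH-8 turns this into acetyl-CoA. Shunt genes are known to be switched on when vitamin B12 is scarce or propionate persists, through the nuclear receptors NHR-10 and NHR-68, and a reporter of the *acdh-1* promoter, active in the intestine, is known to be bright on the OP50 diet, which is poor in vitamin B12.

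Between 19202058 and 27587987 reads per sample were assigned to worm genes. Levels are given as CPM, counts relative to the total of the library, after TMM scaling, a scaling that takes the bulk of the genes as unchanged, and errors are SD over the samples of a day. The samples of day 4 replicate 2 and day 5 replicate 3 were the least like the others of their day (mean Spearman's rho over genes of 0.969 and 0.968, against a median of 0.985 over the 34 samples). Results that rest on them are given with and without them, or are marked as resting on them. One of the day 12 samples has a count column whose replicate number differs from the number in its label, and it is called the unnumbered day 12 sample below. The sequencing batch of these samples is not given in the sources used here, so a batch and an age cannot be told apart where they coincide. The genes lie on WBcel235 (Ensembl release 115) at the following places, each as a protein-coding gene. *acdh-1* (WBGene00016943) lies at chromosome I 6497436 to 6499560 on the plus strand. *ech-6* (WBGene00001155) lies at III 9751552 to 9752883 on the minus strand, *hach-1* (WBGene00017301) at III 5555450 to 5557318 on the plus strand, *hphd-1* (WBGene00012608) at II 12994354 to 12996571 on the minus strand and *alh-8* (WBGene00000114) at II 11729055 to 11731198 on the plus strand. *pcca-1* (WBGene00017864) lies at X 7657542 to 7660986 on the minus strand, *pccb-1* (WBGene00018701) at X 3089549 to 3092437 on the plus strand and *mmcm-1* (WBGene00014202) at III 3903185 to 3907687 on the minus strand. The genes of a route do not lie side by side. The end of *alh-8* or *pccb-1* overlaps a gene on the other strand (F13D12.8 by 34 bases and *wrt-2* by 43 bases), and since the handling of strands in the counting is not given, reads in these stretches cannot be assigned with certainty.

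**Figure D1:**
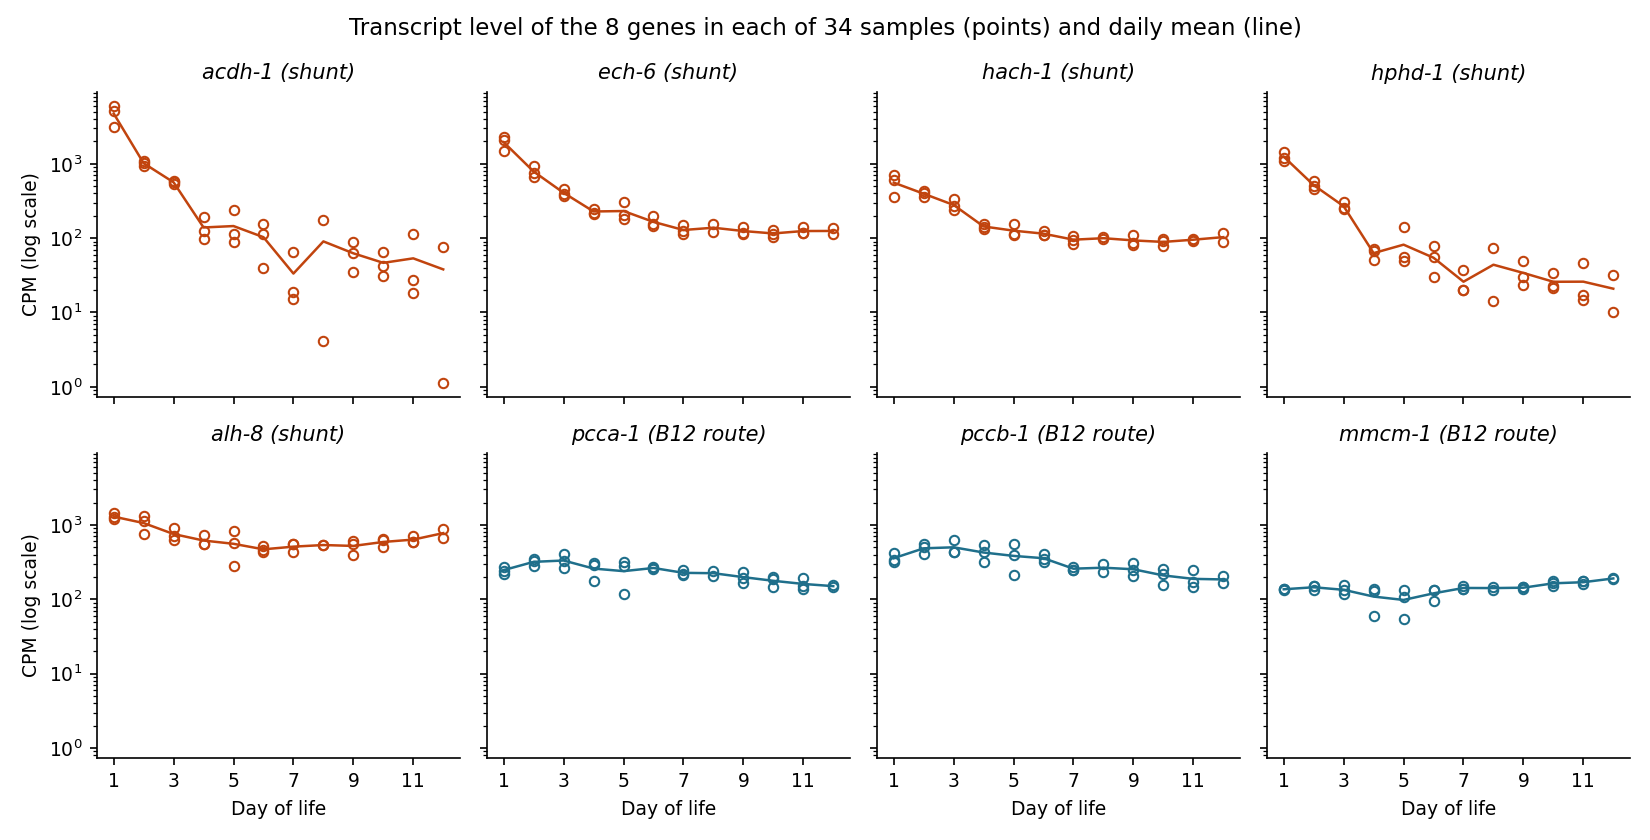
Transcript level of the 8 genes in CPM (log axis) against the day of life. Each point is 1 of 34 samples and the line joins the daily means, red for the 5 shunt genes and blue for the 3 genes of the vitamin B12 route. *acdh-1* and *hphd-1* fell the furthest and had the widest scatter within a day, while *mmcm-1* ended at its highest mean, 191 CPM on day 12.

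Transcripts of *acdh-1*, *ech-6*, *hach-1* and *hphd-1* were abundant early in life and most of them were lost by day 7, whereas the genes of the vitamin B12 route and *alh-8* covered a range of less than 3-fold in their daily means over days 2 to 12. Over days 2 to 12, all 8 genes changed with age in a third-degree polynomial model of age (edgeR quasi-likelihood test, any of 3 coefficients at a Benjamini-Hochberg adjusted p under 0.01), a call made for 80.3% of the 13865 detected genes. The linear coefficient, in log2 per day, fell in 6 of the 8 genes and rose in 1, against 33.9% of all detected genes falling and 36.9% rising. Under scaling by library size alone, 3035 of the 13865 genes fell and 7047 rose, with a median coefficient of 0.050 log2 per day. The 6 that fell were 4 of the 5 shunt genes, with *alh-8* the exception, and the carboxylase subunits *pcca-1* and *pccb-1*. *mmcm-1* was the gene that rose.

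*acdh-1*, the acyl-CoA dehydrogenase at the entry of the shunt, covered the widest range. It had 5058, 6010 and 3161 CPM on day 1, then 941, 1024 and 1085 CPM on day 2 and 586, 542 and 561 CPM on day 3. On day 4 it had 124, 195 and 97.8 CPM, and on day 7 it had 18.95, 15.4 and 65.7 CPM. Each of these days lay wholly below the one listed before it. From day 8 on the samples of 1 day could differ by more than the days did: 4.1 and 177 CPM on day 8, 114.7, 27.1 and 18.5 CPM on day 11, and 74.8 and 1.1 CPM on day 12. The lowest of these, the unnumbered day 12 sample, held 28 reads of *acdh-1*, where the highest day 1 sample held 111578. The linear coefficient of *acdh-1* was -0.42 ± 0.07 log2 per day (SE, adjusted p = 2.7e-06), which ranked 173 of 13865 genes from the most negative, and its daily mean was 30.5-fold higher on day 2 than on day 7, its lowest.

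*ech-6*, the hydratase of the next step, had 660 to 935 CPM on day 2, 112 to 148 CPM on day 7 and 112 and 138 CPM on day 12, with daily means from day 7 on between 116 and 138 CPM. *hach-1*, the hydrolase, had 354 to 429 CPM on day 2, 84.3 to 107 CPM on day 7 and 90.0 and 116 CPM on day 12. Both genes were close to their lowest daily mean by day 7. Their linear coefficients were -0.24 ± 0.01 (adjusted p = 8.4e-16) and -0.18 ± 0.01 log2 per day (SE, adjusted p = 6.3e-15).

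*hphd-1*, the dehydrogenase of 3-hydroxypropionate, took a course like that of *acdh-1*. It had 507, 454 and 586 CPM on day 2, 254, 304 and 248 CPM on day 3 and 70.5, 50.6 and 67.5 CPM on day 4. It had 20.2, 20.3 and 37.3 CPM on day 7, 14.2 and 73.5 CPM on day 8, and 31.7 and 10.0 CPM on day 12. The linear coefficient was -0.41 ± 0.04 log2 per day (SE, adjusted p = 1.9e-10), rank 194 of 13865 from the most negative.

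*alh-8*, the semialdehyde dehydrogenase that closes the shunt, had a smaller fitted change over this time than the 4 genes before it. It had 1120, 758 and 1304 CPM on day 2, 521, 457 and 433 CPM on day 6 and 666 and 887 CPM on day 12. The means of days 2, 6 and 12 were 1061 ± 278, 470 ± 46 and 776 ± 156 CPM (SD). The dip was carried by the quadratic coefficient (adjusted p = 1.5e-05), and the linear coefficient, -0.04 ± 0.02 log2 per day, was not past the threshold (adjusted p = 0.036). Without day 4 replicate 2 and day 5 replicate 3 together, the linear coefficient of *alh-8* was -0.05 (adjusted p = 2.3e-03), without day 5 replicate 3 alone -0.04 (adjusted p = 4.6e-03) and without the unnumbered day 12 sample -0.05 (adjusted p = 6.8e-03), so each of these turned it into a fall. It was also a fall with a replicate block (-0.05, adjusted p = 9.4e-03), with a trend on transcript length removed (-0.06, adjusted p = 9.2e-04) and with day 1 included (-0.07, adjusted p = 6.5e-05), whereas under scaling by library size alone it was 0.0082 (adjusted p = 0.58).

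Among the genes of the vitamin B12 route, *pcca-1* and *pccb-1*, whose products form 1 enzyme, moved in parallel. *pcca-1* had 281 to 353 CPM on day 2, 264 to 408 CPM on day 3, 214 to 246 CPM on day 7 and 146 and 155 CPM on day 12. *pccb-1* had 403 to 553 CPM on day 2, 437 to 626 CPM on day 3, 251 to 272 CPM on day 7 and 167 and 203 CPM on day 12. Each had its highest mean on day 3 and its lowest on day 12, a ratio of 2.21 for *pcca-1* and 2.71 for *pccb-1*. Their linear coefficients were -0.11 ± 0.02 (adjusted p = 4.8e-07) and -0.16 ± 0.02 log2 per day (SE, adjusted p = 1.5e-09), with no bend past the threshold.

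*mmcm-1*, the mutase that needs the cobalamin cofactor, had 135, 150 and 151 CPM on day 2, 138, 58.9 and 129 CPM on day 4 and 133, 106 and 54.8 CPM on day 5. It had 161, 174 and 175 CPM on day 11 and 192 and 189 CPM on day 12, both above every earlier sample. The lowest samples of days 4 and 5 were the pair least like the others of their day. The linear coefficient was 0.06 ± 0.02 log2 per day (SE, adjusted p = 2.0e-03). This rise was not past the threshold without replicate 2 (0.05, adjusted p = 0.016) or when a trend on transcript length was removed from each sample (0.01, adjusted p = 0.65).

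**Figure D2:**
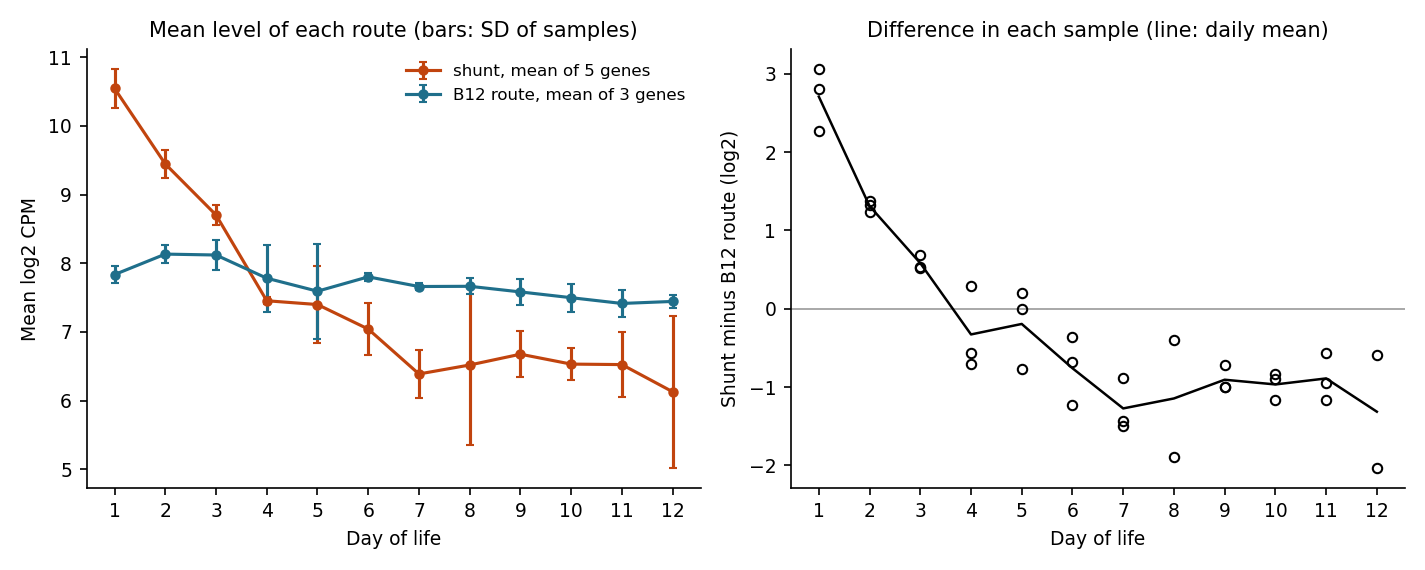
Left, mean log2 CPM of the 5 shunt genes (red) and of the 3 genes of the vitamin B12 route (blue) by day of life, with bars of 1 SD over the samples of the day. Right, the difference of these means in each of 34 samples (points), with the daily mean as a line. The difference was above 0 in every sample of days 1 to 3 and below 0 in every sample from day 6 on. This sign belongs to the mean of log2 CPM, as the summed CPM of the shunt had the higher daily mean on every day.

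To set the routes side by side, the mean log2 CPM of the shunt genes minus that of the vitamin B12 route was taken in each sample, as a description without a test. The difference was 2.71 ± 0.40 on day 1, 1.31 ± 0.07 on day 2 and 0.58 ± 0.09 on day 3 (SD, n = 3 each). It was -0.33 ± 0.54 on day 4, -0.76 ± 0.44 on day 6, -1.27 ± 0.34 on day 7 and -1.32 ± 1.02 on day 12. Both signs were found among the samples of days 4 and 5. The values above 0 were those of day 4 replicate 2 (0.29) and day 5 replicate 3 (0.20), the pair least like the others of their day. Without this pair, every value was below 0, at -0.56 and -0.71 on day 4 and at -0.77 and -0.0075 on day 5. On days 11 and 12, against days 2 and 3, the difference changed by -2.05, which is the shunt change of -2.75 minus the change of -0.70 in the vitamin B12 route, beside an SD within days of 0.46. The samples of days 11 and 12 lay between -2.03 and -0.56, and those of days 2 and 3 between 0.52 and 1.38, with no overlap. The change was -1.41 without *acdh-1* and -0.68 when counts were summed over each route, a sum in which *alh-8* made up 73.0% of the shunt on day 12 and 28.1% on day 2. Without the unnumbered day 12 sample the change was -1.69. The crossing of 0 belongs to the mean of log2 CPM. In summed CPM, of 5 genes against 3, the shunt stayed above the vitamin B12 route in the mean of every day. These sums were 794 against 627 CPM on day 7 and 1063 against 526 CPM on day 12.

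Compared per length of transcript, the order of the genes turned over. On day 1, mean levels in CPM per kb were 2827 ± 864 for *acdh-1* and 1916 ± 415 for *ech-6* (SD, n = 3), which overlapped, 749 ± 115.2 for *hphd-1* and 731 ± 69 for *alh-8*, which overlapped as well, and 373 ± 123.3 for *hach-1*. Below them came *pccb-1* with 192 ± 27, *pcca-1* with 101 ± 11 and *mmcm-1* with 55.1 ± 1.3 CPM per kb, so that every shunt gene stood above every gene of the vitamin B12 route. On day 12, *alh-8* was alone at the top with 438 ± 88 CPM per kb (SD, n = 2), followed by *ech-6* with 122.8 ± 17.9 and *pccb-1* with 99.3 ± 13.6. *mmcm-1* with 77.0 ± 0.9, *hach-1* with 69.0 ± 12.4 and *pcca-1* with 61.4 ± 2.8 CPM per kb came next, and *mmcm-1* and *hach-1* overlapped, as did *hach-1* and *pcca-1*. *acdh-1* with 22.6 ± 31.1 and *hphd-1* with 12.6 ± 9.2 CPM per kb were at the bottom and overlapped.

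**Figure D3:**
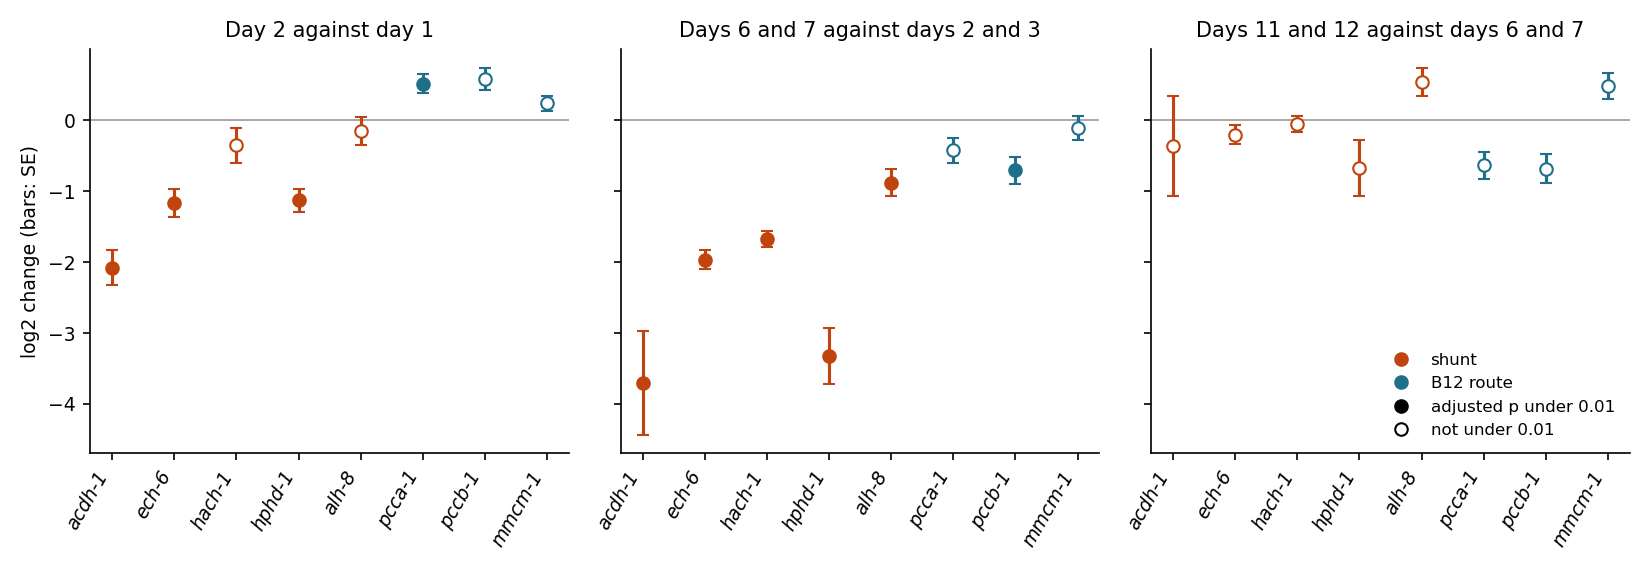
Fitted log2 change of each gene, with bars of 1 SE, in 3 comparisons: day 2 against day 1, days 6 and 7 against days 2 and 3, and days 11 and 12 against days 6 and 7. Red marks shunt genes, blue the vitamin B12 route, and filled points have an adjusted p under 0.01. Filled points are 4 in the left panel, 6 in the middle panel and none in the right panel.

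On day 2, against day 1, an age at which worms at this temperature are still larvae, *acdh-1*, *ech-6* and *hphd-1* were lower and *pcca-1* was higher. The 3 of 8 genes that fell are a share near the 35.9% of the 12008 genes tested that were lower on day 2, and 1 of 8 rose, against 33.8%, so the counts do not set these genes apart. *acdh-1* changed by -2.08 ± 0.24 log2 (SE, adjusted p = 1.3e-04), which is a level 4.22-fold higher on day 1. *ech-6* had 659.9 to 935 CPM on day 2, against 1478 to 2296 CPM on day 1, a change of -1.17 ± 0.20 (adjusted p = 1.1e-03). *hphd-1* had 454 to 586 CPM on day 2, against 1084 to 1456 CPM on day 1, a change of -1.13 ± 0.16 (adjusted p = 3.7e-04). None of these 3 genes overlapped between the days, and the share of all genes tested without overlap is not given here. *pcca-1* had 281 to 353 CPM on day 2, against 222 to 276 CPM on day 1, also with no overlap (0.51 ± 0.13, adjusted p = 8.7e-03), and *pccb-1*, with a change of 0.58 ± 0.16, just missed the threshold (adjusted p = 0.011). *hach-1* (-0.35, adjusted p = 0.22), *alh-8* (-0.15, adjusted p = 0.51) and *mmcm-1* (0.24, adjusted p = 0.067) overlapped between the days. The median change of all genes tested was -0.12. With a spread shared over all 34 samples in place of these 6, *ech-6* was the 1 gene called, and the adjusted p was 0.035 for *acdh-1* and 0.024 for *hphd-1*. Without replicate 1, 2 or 3 of both days, *pcca-1* was not called (adjusted p from 0.017 to 0.089), and without replicate 1 *acdh-1* was the only gene called. Of the single samples, leaving out day 2 replicate 1 left 2 genes called, without *ech-6* (adjusted p = 0.011) and *pcca-1* (0.028), and leaving out day 1 replicate 3 gave 6, with *hach-1* (-0.62, adjusted p = 3.8e-03) and *pccb-1* (0.68, adjusted p = 3.9e-03) added. *pcca-1* was also lost without day 1 replicate 1 (adjusted p = 0.038), day 1 replicate 2 (0.028) or day 2 replicate 3 (0.035), and *pccb-1* was called without day 2 replicate 2 (0.72, adjusted p = 6.3e-03). RLE factors or no filter gave 5 genes, with *pccb-1* added, DESeq2 or removal of the length trend gave 6, with *pccb-1* and *mmcm-1* (adjusted p = 8.8e-03 and 5.8e-03) added, and at least 10 counts in every sample gave 3, without *pcca-1* (adjusted p = 0.013).

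On days 6 and 7, against days 2 and 3, all 5 shunt genes and *pccb-1* were lower, 6 of 8 genes, against 24.8% of detected genes that were lower and 27.1% that were higher. *acdh-1* had 15.4 to 153 CPM on days 6 and 7, against 542 to 1085 CPM on days 2 and 3 (-3.70 ± 0.73 log2, SE, adjusted p = 1.1e-04, 13.02-fold higher on days 2 and 3). *hphd-1* had 20.2 to 78.3 CPM, against 248 to 586 CPM (-3.32 ± 0.39, adjusted p = 1.1e-07). These are the dehydrogenases at the entry and in the middle of the shunt. *ech-6* changed by -1.96 ± 0.13 (adjusted p = 5.0e-12), *hach-1* by -1.68 ± 0.11 (adjusted p = 4.6e-12) and *alh-8* by -0.88 ± 0.19 (SE, adjusted p = 2.5e-04). None of the 5 shunt genes overlapped between these pairs of days, while each gene of the vitamin B12 route did, *pccb-1* narrowly. The share of all detected genes without overlap is not given here, so this is not read as a result about these genes. *pccb-1* had 251 to 409 CPM on days 6 and 7, against 403 to 626 CPM on days 2 and 3 (-0.71 ± 0.19, adjusted p = 2.2e-03), *pcca-1* changed by -0.42 ± 0.18 (adjusted p = 0.042) and *mmcm-1* by -0.10 ± 0.17 (adjusted p = 0.61). The median change over all detected genes was 0.038 with TMM scaling and 0.48 with library size alone. Under that second scaling, *alh-8* (-0.42, adjusted p = 0.014) and *pccb-1* (-0.25, adjusted p = 0.15) were no longer called, and *pcca-1* (0.03, adjusted p = 0.86) and *mmcm-1* (0.34, adjusted p = 0.049) took the other sign, none past the threshold. *alh-8* (adjusted p = 0.022) was not called without replicate 1, and *pccb-1* was not called without replicate 1 (adjusted p = 0.048) or replicate 3 (adjusted p = 0.013). With a trend on transcript length removed, *pcca-1* (-0.68, adjusted p = 1.8e-04) and *mmcm-1* (-0.38, adjusted p = 5.7e-03) were called lower too.

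On days 11 and 12, against days 6 and 7, no gene of either route passed the threshold in edgeR's quasi-likelihood test (0 of 8, against 12.0% of detected genes lower and 11.0% higher), although 4 had an unadjusted p under 0.05. *pcca-1* had 137 to 194 CPM on days 11 and 12, against 214 to 274 CPM on days 6 and 7 (-0.64 ± 0.19 log2, SE, adjusted p = 0.011), and *pccb-1* had 148 to 249 CPM, against 251 to 409 CPM (-0.68 ± 0.20, adjusted p = 0.011). *mmcm-1* had 161 to 192 CPM on days 11 and 12, against 94.8 to 151 CPM on days 6 and 7 (0.48 ± 0.18, adjusted p = 0.037), and *alh-8* had 590.0 to 887 CPM, against 432 to 551 CPM (0.54 ± 0.19, adjusted p = 0.032). In none of these 4 genes did the days overlap, and for this too the share of all detected genes is not given here. DESeq2's Wald test called 2 genes, *pcca-1* and *pccb-1*, and so did the quasi-likelihood test without day 11 replicate 1 (adjusted p = 8.6e-03 for *pcca-1* and 4.5e-03 for *pccb-1*). For *acdh-1* the change was -0.36 ± 0.71 (adjusted p = 0.72), and its value rested on single samples, as it was -2.89 without day 12 replicate 1 (adjusted p = 0.021), 0.13 without the unnumbered day 12 sample and 0.12 without day 7 replicate 3. Without replicate 1 of every day, *acdh-1* (-3.85, adjusted p = 2.0e-03) and *hphd-1* (-1.78, adjusted p = 7.4e-03) were called. The other shunt genes changed by -0.67 (*hphd-1*), -0.21 (*ech-6*) and -0.06 (*hach-1*). The value of *hphd-1* was -1.2 without day 12 replicate 1 (adjusted p = 0.058) and -0.37 without the unnumbered day 12 sample (adjusted p = 0.53). This comparison shares the samples of days 6 and 7 with the one before it.

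Pooled over days 2 to 12, the levels of *acdh-1* in samples of the same age differed more than those of nearly every other gene. Its SD within days over days 2 to 12 was 1.48 log2, and 11 of 7516 genes with a symbol and a mean of at least 10 CPM had an SD as large or larger, *acdh-1* included. *hphd-1* followed with 0.70 (151 genes as large or larger). For the other members the SD within days lay between 0.18 for *hach-1* and 0.35 for *pccb-1*, against a median of 0.21 over these genes. In the plot of deviations from the mean of the day, the samples of days 8 and 12 mark the ends of the *acdh-1* axis. By day, the SD of *acdh-1* in log2 CPM was 0.10 on day 2 and 0.06 on day 3 (n = 3 each). It was 3.82 on day 8 and 4.20 on day 12 (n = 2 each). On the days between it ran from 0.51 on day 4 to 1.38 on day 11, day 8 aside. The wide scatter of *acdh-1* was thus not seen on days 2 and 3.

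**Figure D4:**
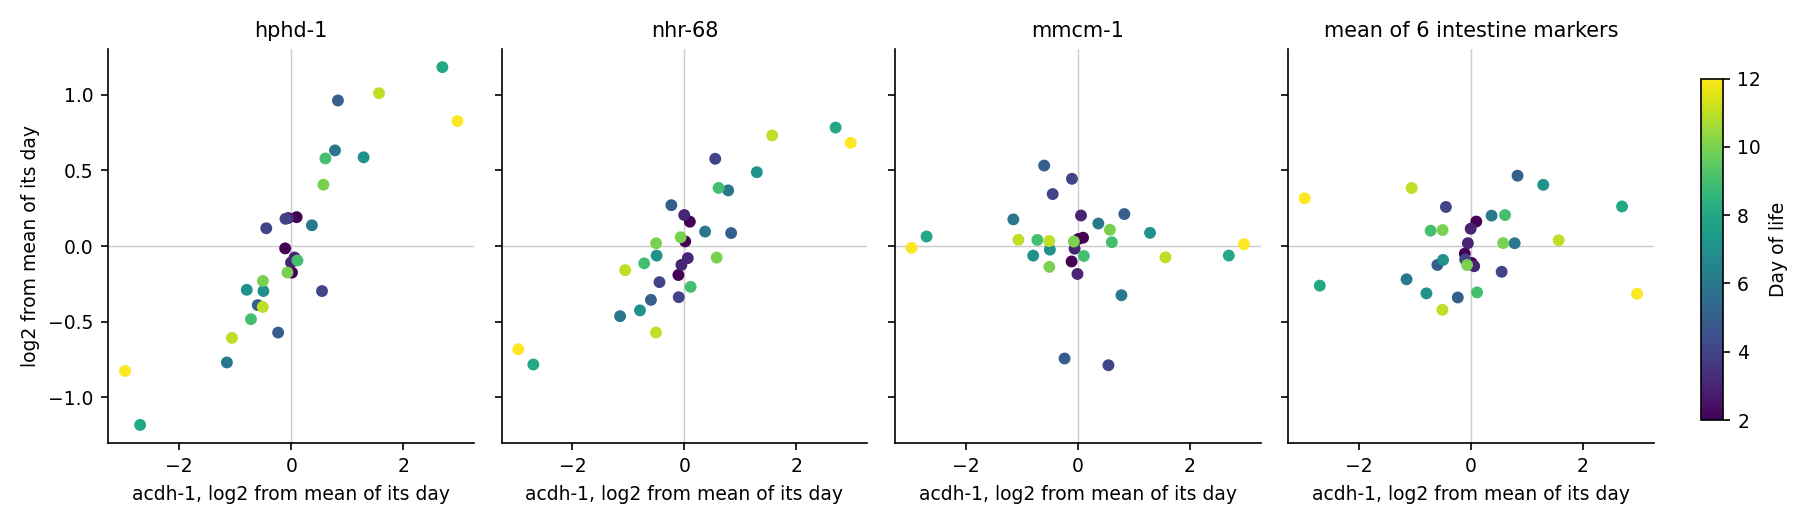
Deviation of each of 31 samples of days 2 to 12 from the mean of its day, in log2, for *acdh-1* (horizontal axes) against *hphd-1*, *nhr-68*, *mmcm-1* and the mean of 6 intestine markers (vertical axes), coloured by day of life. The points of *hphd-1* and *nhr-68* follow a rising line (r = 0.89 and 0.87). For *mmcm-1* r was -0.12, and for the intestine markers it was 0.10 with the day 12 samples and 0.440 without them.

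Samples high or low in *acdh-1* for their age tended to be so in *hphd-1*, *ech-6* and *hach-1*, while for *alh-8* no relation passed the threshold. Over the 31 samples of days 2 to 12, 11 relations of the deviations of *acdh-1* from its daily mean were tested by 100000 permutations within days (two-sided, Benjamini-Hochberg adjusted over the 11). The relation with *hphd-1* had r = 0.886 (permutation p = 2.5e-04, adjusted 2.8e-03) and rho = 0.887 (p = 3.7e-04, adjusted 2.8e-03), with the same order in 22 of 29 pairs of samples of 1 day. It was 0.904 without the 2 day 12 samples, which lie farthest from the median of *acdh-1*, 0.923 without day 4 replicate 2 and day 5 replicate 3, and between 0.834 and 0.937 within a replicate number. The relation with *ech-6* had r = 0.559 (permutation p = 0.003, adjusted 0.011) and rho = 0.649 (p = 0.0033, adjusted 0.012), and that with *hach-1* had r = 0.428 (p = 0.014, adjusted 0.037) and rho = 0.482 (p = 0.021, adjusted 0.046), where r came to 0.309 without the day 12 samples. Within replicates 1, 2 and 3, r was 0.779, 0.369 and 0.299 for *ech-6* and 0.578, 0.030 and 0.284 for *hach-1*. *alh-8* had r = -0.092 (permutation p = 0.60), *pcca-1* 0.184 (p = 0.17), *pccb-1* 0.346 (p = 0.038, adjusted 0.069) and *mmcm-1* -0.117 (p = 0.29), and of these none passed an adjusted p of 0.05. Their rho lay between -0.187 for *alh-8* and 0.406 for *pccb-1*. Without day 4 replicate 2 and day 5 replicate 3, r was 0.554 for *ech-6*, 0.437 for *hach-1* and -0.157 for *alh-8*. It was then 0.472 for *pccb-1*, above *hach-1*, 0.352 for *pcca-1* and -0.186 for *mmcm-1*. Whether the relations with the shunt genes and with the vitamin B12 route differ was not tested. As a description over all 7515 other genes, the genes whose deviations were most like those of *acdh-1* were T05E12.6 (r = 0.982), *folt-2* (0.976), C23H5.8 (0.953), *elo-5* (0.943) and *pud-2.2* (0.940), where *elo-5* codes for a fatty acid elongase and *folt-2* for a protein of the folate transporter family. *hphd-1* ranked 33.

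Across age as well, the genes most like *acdh-1* over the 31 samples by Pearson's r of log2 CPM were T05E12.6 (r = 0.993), *folt-2* (0.989) and *col-178* (0.974), a collagen gene. By Spearman's rho, *pmp-5* (0.988) took the place of *col-178*. For *mmcm-1* they were *sec-31* (r = 0.986), which codes for a coat protein of vesicles leaving the endoplasmic reticulum, *tag-153* (0.982) and *ani-2* (0.981), an anillin of the germline, and by Spearman's rho Y32B12B.4 (0.958), *gei-14* (0.940) and *ani-2* (0.940). By rho, *sec-31* had 0.938 and *tag-153* 0.906. The samples lowest in *mmcm-1*, day 4 replicate 2 and day 5 replicate 3, are the pair least like the others of their day. The r of *mmcm-1* without this pair is not given here, so how far it rests on them was not tested. All these values share the course of age over the same samples.

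The nuclear receptors followed here, *nhr-10* and *nhr-68*, which act on the shunt, and *nhr-114*, split in direction over days 2 to 12. *nhr-68* had 33.9, 39.5 and 43.2 CPM on day 2, 8.5, 6.6 and 12.5 CPM on day 7 and 6.0 and 2.3 CPM on day 12, a linear coefficient of -0.32 ± 0.03 log2 per day (SE, adjusted p = 2.4e-12). It was lower on day 2 than on day 1 (-2.56 ± 0.18, adjusted p = 9.8e-06). So were *nhr-114* (-1.06 ± 0.17, adjusted p = 8.1e-04) and *nhr-10* (-0.90 ± 0.20, adjusted p = 4.0e-03), as were 35.9% of the genes tested. *nhr-114*, a receptor known for a role in the response to low vitamin B12, had 101, 101 and 146 CPM on day 2, 5.2, 7.7 and 7.4 CPM on day 7 and 4.5 and 5.4 CPM on day 12 (linear coefficient -0.35 ± 0.04, adjusted p = 2.8e-10). *nhr-10* rose with age (0.07 ± 0.01, adjusted p = 1.6e-07), with 23.1 and 27.4 CPM on day 12, against 16.7, 19.9 and 18.7 CPM on day 2. Within days, the deviations of *acdh-1* went with those of *nhr-68*, with r = 0.865 (permutation p = 6.5e-04, adjusted 3.6e-03) and rho = 0.826, the same order in 22 of 29 pairs and r between 0.836 and 0.923 within a replicate number. It was 0.847 without the day 12 samples. For *nhr-114* r was 0.443 (permutation p = 0.030, adjusted 0.066) and rho 0.596 (p = 0.008, adjusted 0.022), and for *nhr-10* r was 0.159 (p = 0.52) and rho 0.237.

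**Figure D5:**
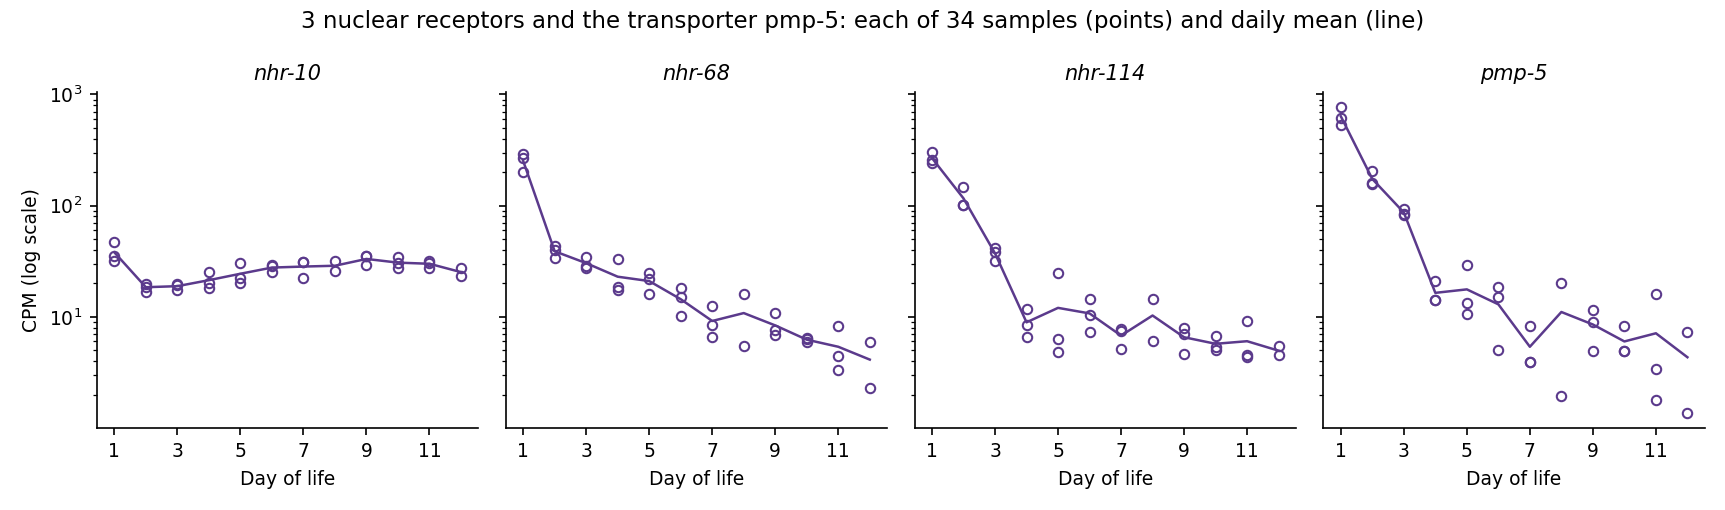
Levels of *nhr-10*, *nhr-68*, *nhr-114* and *pmp-5* in CPM (log axis) against the day of life, with 1 point for each of 34 samples and a line through the daily means. *nhr-68*, *nhr-114* and *pmp-5* fell with age and *nhr-10* rose over days 2 to 12.

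Genes that handle cobalamin or complete its route were counted next, from lists of related enzymes. All 9 cobalamin genes changed with age, as did 80.3% of all detected genes, with 5 falling and 2 rising (33.9% and 36.9% of all), with a median coefficient of -0.051 log2 per day against 0.0063 over all genes. *pmp-5*, the relative of the human cobalamin transporter ABCD4, fell most, with -0.45 ± 0.05 (adjusted p = 5.5e-09). It had 3.9, 4.0 and 8.3 CPM on day 7, against 157, 161 and 203 CPM on day 2. *mce-1*, the epimerase between the carboxylase and the mutase, fell (-0.13 ± 0.01), as did *mmab-1* (-0.07 ± 0.01), which makes adenosylcobalamin, while *mrp-5*, an exporter of the ABC class, rose (0.09 ± 0.02). In branched-chain amino acid breakdown, only parts of which yield propionyl-CoA, 7 of 8 listed genes were analysed and all 7 changed (80.3% of all genes did), 6 falling and none rising (33.9% and 36.9% of all). Those with the largest coefficients were *dld-1* (-0.11), *bckd-1A* (-0.10), *bckd-1B* (-0.08) and *ivd-1* (-0.06), and all 7 were lower on days 6 and 7 than on days 2 and 3, against 24.8% of all genes.

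The relatives of the shunt enzymes moved in both directions. Of 12 other acyl-CoA dehydrogenase genes 11 were detected (not *acdh-6*), and 7 fell and 3 rose, with *acdh-8* (0.35) and *acdh-5* (0.32) the largest rises and *acdh-2* (-0.27) and *acdh-9* (-0.22) the largest falls. Of 12 other aldehyde dehydrogenase genes 11 were detected (not *alh-2*), and 7 fell and 3 rose, where *alh-12* (-0.31), *alh-9* (-0.21), *alh-10* (-0.19) and *alh-5* (-0.18) had the largest coefficients. Of 9 other enoyl-CoA hydratase genes 5 fell and 1 rose, with *ech-7* (-0.50), *ech-1.1* (0.16), *ech-8* (-0.13) and *ech-2* (-0.09) the largest. Together with the cobalamin, receptor and branched-chain lists, 48 of 50 detected genes changed, 32 falling and 10 rising, beside 80.3%, 33.9% and 36.9% of all detected genes. The split was 22 falling and 14 rising under scaling by library size alone, and 36 and 5 with a trend on transcript length removed. Genes of 1 family share sequence, and reads that fit several copies may have been left out or counted under the wrong copy.

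Cell type markers moved with age too, and in whole animals fewer cells of a type and less RNA per cell cannot be told apart. All 6 intestine markers fell with age, and, for this and the marker counts below, 33.9% of all detected genes fell and 36.9% rose. The summed level of the intestine markers was 3396 to 4423 CPM on day 1 and 472 to 969 CPM on days 2 and 3. It was 147 to 217 CPM on days 6 and 7 and 84.8 to 152 CPM on days 11 and 12. The median linear coefficient of the 6 intestine markers was -0.23 log2 per day, against -0.24 for the 5 shunt genes and -0.11 for the 3 genes of the vitamin B12 route. Within days, the mean of the intestine markers did not move with *acdh-1* past the threshold (r = 0.104, permutation p = 0.74, rho = 0.222, p = 0.43), a relation added after the others had been seen. That value rested on the day 12 samples, as r was 0.440 without them, and it was 0.115, 0.710 and 0.193 within replicates 1, 2 and 3. All 5 germline and oocyte markers were higher on day 2 than on day 1, as were 33.8% of the genes tested. Their sum was 3900 to 4271 CPM on day 2, against 29.8 to 63.3 CPM on day 1. All 5 were lower on days 6 and 7 (2310 to 2988 CPM) than on days 2 and 3 (3608 to 4735 CPM), as were 24.8% of all detected genes. The sum was 2783 to 3359 CPM on days 11 and 12. Of the 5 body wall muscle markers 3 fell with age and 1 rose, with sums of 141 to 274 CPM on days 6 and 7, against 245 to 2016 CPM on days 2 and 3. Of the hypodermis markers, *rol-6* was at 0 in every day 2 sample, *rol-6* and *bli-1* were not detected over days 2 to 12, 1 of the other 3 fell and 1 rose, and the sum was 28.7 to 117 CPM on days 6 and 7, against 174 to 2222 CPM on days 2 and 3. Of the 5 neuron markers 2 fell and 1 rose, with sums of 379 to 499 CPM on days 6 and 7, against 305 to 510 CPM on days 2 and 3. The part of these marker changes in the changes of the propionate genes was not tested.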

How the data were processed

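Whole-animal RNA-seq of 34 samples was used. The authors deposited raw counts per gene, whole numbers without normalization or a filter on low counts. Libraries were made from poly(A)-enriched, rRNA-depleted RNA with random hexamers. Per the submitters' processing notes, STAR 2.7.3a, featureCounts and WBcel235 were used, and strand handling is not given in the sources used here. Totals per sample lay between 19202058 and 27587987 counts. An entry named transgene (0.000137% of counts) was kept out of library sizes and tests. Symbols were matched for 19708 genes, and positions and exon lengths came from Ensembl release 115. The table has no column of comparisons by the authors, and 0 columns belong to no sample. The group of a sample was the day its label gives.

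Genes with at least 5 counts in 75% of samples were tested with edgeR 4.0.16 in R 4.3.3 (TMM, glmQLFit, glmQLFTest, Benjamini-Hochberg over all tested genes, adjusted p under 0.01). Age over the 31 samples of days 2 to 12 was a third-degree orthogonal polynomial. Pairs of days were contrasted with 1 coefficient a day, and day 2 was compared with day 1 in a fit of their 6 samples. SE is the size of the log2 change divided by the square root of F. The study's term for sequencing batch was left out, since the batches are not named for these samples. Log2 CPM used a prior count of 2. Deviations within days were permuted 100000 times with NumPy 2.4.6 and SciPy 1.17.1 in Python 3.11.15. The fits were tested on simulated data. Alternatives were RLE factors, library size alone, no filter, at least 10 counts in every sample, DESeq2 1.42.0, a threshold of 0.05, a replicate block, removal of a trend on transcript length, and samples left out. Leaving out single samples, and day 4 replicate 2 with day 5 replicate 3, was chosen after the data had been seen.

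The 8 genes, the gene lists and the tests were chosen with earlier results of these data known, and nothing here is independent support for those results. Named besides the 8 were, from each other list, up to 4 genes past the test by size of the linear coefficient, every listed nuclear receptor, and the 3 genes most like *acdh-1* and *mmcm-1*. The genes most like *acdh-1* within days were named after their values had been seen. *mccc-2* was not analysed here.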

Additional observations from a re-analysis of the deposited data

Results flagged for a closer look

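The entry named transgene, which takes no part in the comparisons, held reads in every sample. It had 262 counts in its highest library, day 1 replicate 3, and 2 in its lowest. Each day 1 sample had 88 or more, the day 2 samples had 31 to 106 and no later sample had more than 36. There was no library known to lack a transgene, and the entry is listed because these counts exceed the 3 that a count of 0 allows.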

How the results depend on the processing

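The number of the 8 genes that changed with age stayed at 7 or 8 in 45 alternatives, and that of the other lists between 44 and 49. On days 11 and 12 against days 6 and 7 the edgeR count of 0 became 2 under library size alone, 2 with no filter, 1 with at least 10 counts in every sample, 2 with DESeq2, 4 at an adjusted p under 0.05, 3 with the length trend removed, 0 to 2 without each replicate and 0 to 2 with single libraries left out. On day 2 against day 1 the count of 4 became 1 to 3 without each replicate, 2 to 6 with single libraries left out 1 with all samples in 1 fit, 3 with at least 10 counts in every sample, 5 with RLE factors or no filter, and 6 with DESeq2 or the length trend removed. The shunt minus vitamin B12 route change was -1.41 without *acdh-1* and -0.68 on summed counts, and 3 of the 6 most alike genes were kept under Spearman's rho.

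Signs turned in 14 values, none past the threshold. Under library size alone these were *alh-8* over age (0.0082), and *pcca-1* (0.031) and *mmcm-1* (0.34) on days 6 and 7 against days 2 and 3. For days 11 and 12 against days 6 and 7, *acdh-1* turned without replicate 3 (0.36), day 7 replicate 3 (0.12) or the unnumbered day 12 sample (0.13), within a range of -3.85 to 0.36 over the samples left out. *hach-1* turned without replicate 2 (0.023), without the unnumbered sample (0.028; range -0.23 to 0.028) and with the length trend removed (0.046), as did *ech-6* with the length trend removed (0.026). On day 2 against day 1, *alh-8* turned with the length trend removed (0.0033) and without day 2 replicate 2 (0.066, range -0.30 to 0.066). The cause was not tested.

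The replicate numbers did not pair the samples, since deviations of same-numbered samples correlated at 0.017 on average and 12 of 30 samples were most like their own number. With a replicate block, 8 genes changed with age (7 falling), 5 changed on day 2 against day 1, 6 on days 6 and 7 against days 2 and 3 and 0 on the last comparison, where *acdh-1* (0.24) and *hach-1* (0.045) turned in sign.

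With 2 or 3 samples a day, changes of the size of the SD within days, 1.48 log2 for *acdh-1*, limit what the later comparison can show. Counting error is small for most genes, but *acdh-1* at 28 reads carries it.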
